A study of Mus musculus with 88 samples.

Results

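Cluster 0 is 1 of the 22 groups into which the authors sorted the single cells of this study, and its 386 cells of 4949 in all were taken by the authors' own cluster label, with no further selection. Of these cells, 334 (86.5%) carried the genotype label Mtf2 null, 48 (12.4%) Jarid2 null, 3 WT and 1 Eed null. The name under which the cluster is described here, undifferentiated Mtf2 null cells, fits most but not all of its members.

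Embryoid bodies (EBs), aggregates in which mouse embryonic stem cells (mESCs) differentiate, were made from 4 kinds of cells that had been maintained in serum with LIF. The single-cell labels name the strain E14 for all of them, a line of 129/Ola origin, and the genotypes are WT and null for Mtf2, Jarid2 or Eed. Live cells were sorted into 384-well plates, and 1 plate per genotype was sequenced at day 0 (undifferentiated) and at days 4, 7 and 10, which gives 16 libraries. Bulk RNA was also sequenced from undifferentiated (UD) WT, Mtf2 null and Jarid2 null cells of a mesoderm and an endoderm series, with 2 libraries per genotype in each, and from EBs of mutant lines and their own WT lines at days 0, 2, 4 and 7. In each experiment a mutant was compared as the cells of 1 label, so a difference from WT cannot be told apart from a difference between lines. With 1 plate per genotype and day there is no replicate of any single-cell value, so single-cell differences are given as descriptions, and intervals on them cover counting error only.

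Polycomb repressive complex 2 (PRC2) places a repressive methyl mark on histones at developmental genes. The core subunit EED is needed in every form of the complex, MTF2 brings the form called PRC2.1 to CpG-rich DNA, and JARID2 belongs to the alternative form PRC2.2. In undifferentiated mESCs the transcription factors Esrrb and Nanog are part of the network that maintains self-renewal, and their transcripts decline as cells leave pluripotency.

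The cells of cluster 0 came mainly from 1 plate. In the Mtf2 null day 0 library, 302 of 347 cells (87.0%, Clopper-Pearson 95% interval 83.0 to 90.4) were in cluster 0. The Mtf2 null day 4 library had 27 of 331 cells there (8.16%, 5.44 to 11.7), and the day 7 and day 10 libraries had 2 and 3. Most undifferentiated Mtf2 null cells therefore lay in this cluster and few cells did once EBs had formed.

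A minority of undifferentiated Jarid2 null cells shared the cluster. In the Jarid2 null day 0 library, 45 of 337 cells (13.4%, 9.91 to 17.5) were in cluster 0, while 223 (66.2%) were in cluster 8. At days 4, 7 and 10 the Jarid2 null libraries had 1, 0 and 2 cells, and 0 of 302 allows a share of up to 0.993%. The WT day 0 library had 2 of 340 cells in cluster 0 and 307 in cluster 3, and the Eed null day 0 library had 1 of 340. Clusters 3 and 8, which hold most of the undifferentiated WT and Jarid2 null cells, were therefore taken as the nearest groups for comparison. No cluster of undifferentiated Eed null cells was compared singly.

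**Figure D1:**
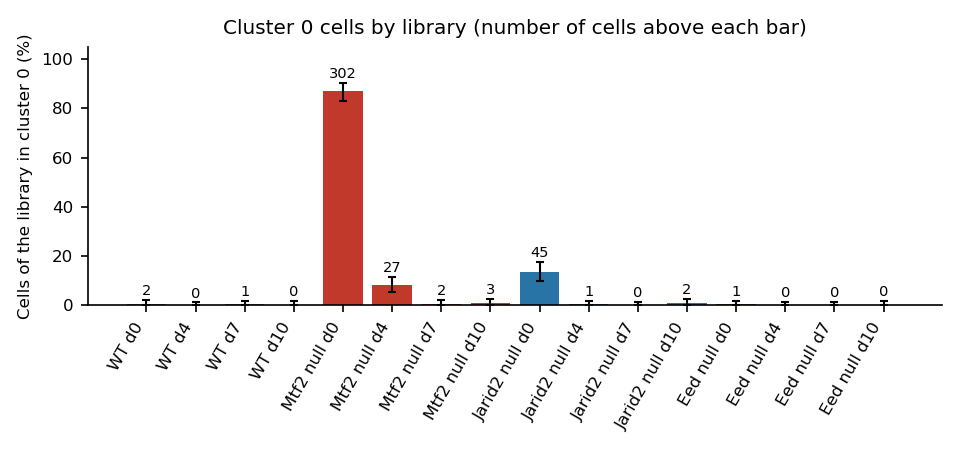
Share of the cells of each single-cell library that lay in cluster 0, in percent, by genotype and day, with Clopper-Pearson 95% intervals for 1 library each. The Mtf2 null day 0 library stands at 87.0%, the Jarid2 null day 0 library at 13.4% and the Mtf2 null day 4 library at 8.16%, and every other library had at most 3 such cells.

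The 45 Mtf2 null day 0 cells outside the cluster were spread over 7 clusters, with 14 in cluster 8 and 9 in cluster 3. Their median depth was 10873 unique molecular identifiers (UMIs, tags that count captured mRNA molecules), near the 10593 of the 302 members of that plate. The range was 1421 to 63686 UMIs outside the cluster and 1430 to 41515 in these members, and a part of depth in the split was not tested. Over all of cluster 0 the median was 9972 UMIs per cell (1298 to 41515), compared with 6450 in all other cells, 8485 in cluster 3 and 10060 in cluster 8. The Jarid2 null day 0 members were shallower, at 5840. All plates used the same 384 well barcodes by design, and the 386 cells carry 319 of them, so a barcode identifies a well position and not a cell.

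Levels below are UMI CPM, the UMIs of a gene summed over a group of cells and scaled to the same total of UMIs over all genes, here 1e6, with exact Poisson 95% intervals. Shares of cells with at least 1 UMI are given after thinning each cell to 2500 UMIs, which leaves out 22 cells of cluster 0, 470 of the other cells, 17 of cluster 3 and 35 of cluster 8.

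The targeted genes were examined first. Mtf2 stood at 45.5 UMI CPM in the Mtf2 null day 0 members and at 43.8 in the Mtf2 null members of days 4 to 10, compared with 550 in the Jarid2 null day 0 members and 796 in the WT day 0 cells of cluster 3. After thinning, 12.2% of the Mtf2 null day 0 members had an Mtf2 UMI, against 72.5% of the Jarid2 null day 0 members and 85.6% of the WT cells. Jarid2 ran the other way, at 884 UMI CPM in Mtf2 null day 0 members, 598 in the WT cells and 167 in the Jarid2 null day 0 members. The members of both genotypes thus carry the transcript level of their own label, and the cluster is a mixture of cells low in Mtf2 and cells low in Jarid2. Eed differed less, at 459, 494 and 487 UMI CPM in these 3 groups.

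Both markers of the cluster were present, although neither was highest there. Esrrb stood at 206 UMI CPM (192 to 221) in cluster 0 and 98.2 in all other cells, the 2nd highest of the 22 clusters after cluster 3 (239). Nanog stood at 268 (252 to 284), compared with 184 in all other cells, and was the 5th highest, with 4 clusters between 278 and 391. Thinned shares of cells with a UMI were 39.0% for Esrrb in cluster 0, 38.7% in cluster 3 and 30.9% in cluster 8, and for Nanog 46.4%, 38.1% and 42.2%. The markers therefore fit undifferentiated cells, and they do not by themselves tell cluster 0 from clusters 3 and 8.

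Of 15 mesoderm genes, 4 (T, Gsc, Mesp1 and Pdgfra) had 0 UMIs in the 386 cells. So did 2 of 14 endoderm genes (Afp and Ttr, of liver and yolk sac) and 3 of 9 fibroblast genes (Col1a1, Dcn and Postn). Such zeros were not particular to cluster 0, since 6 mesoderm and 6 endoderm genes were at 0 in cluster 3, and 3 and 5 in cluster 8. Without thinning, a UMI of any mesoderm gene was found in 17.1% of cells in cluster 0, 8.96% in cluster 3, 17.0% in cluster 8 and 44.5% of all other cells. The summed level of 9 fibroblast genes, which would mark feeder cells, was 4.54 UMI CPM in cluster 0 and 304 in all other cells. Zscan4a to Zscan4f, genes of cleavage-stage embryos that flare in rare mESCs, had 0 UMIs in cluster 0 and in clusters 3 and 8 alike.

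**Figure D2:**
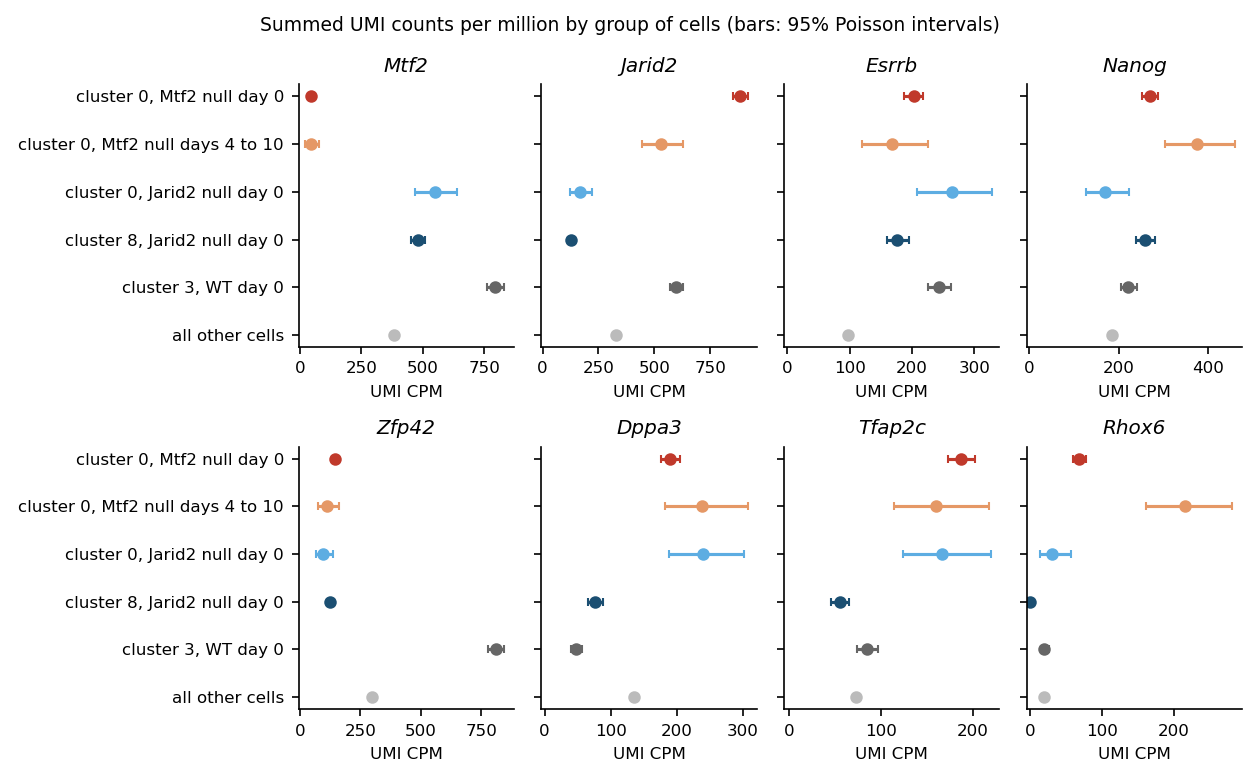
UMI CPM of Mtf2, Jarid2, Esrrb, Nanog and 4 further genes described below in 3 groups of cells of cluster 0, the nearest groups of clusters 8 and 3, and all other cells, with exact Poisson 95% intervals. Mtf2 is low in the Mtf2 null members (45.5 UMI CPM at day 0) and not in the Jarid2 null members (550), while Esrrb and Nanog are present in every group shown.

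Cluster 0 was then compared with all other cells, with cluster 3 and with cluster 8. A gene was counted as past the fold when its log2 ratio, with 1 CPM added to both sides, was above 1 in size and the higher side had at least 20 UMI CPM. The clusters were themselves made from these transcripts, so none of these counts is a test. Against all other cells, 185 of 7634 genes (2.42%) were past the fold in the higher direction and 677 (8.87%) in the lower. Against cluster 3 these were 264 (3.64%) and 353 (4.86%) of 7262 genes, and against cluster 8 they were 162 (2.34%) and 72 (1.04%) of 6922.

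The largest ratios against all other cells were those of 2 keratins. Krt42, a type I keratin, stood at 139 UMI CPM in cluster 0 and 9.31 elsewhere, a ratio of 14.9 (13.0 to 17.2), and Krt17, another type I keratin, at 140 and 10.4, a ratio of 13.5 (11.8 to 15.4). Serpinb6c, a serine protease inhibitor, followed at 10.1 (8.53 to 11.9). Next came Pnp2, a purine nucleoside phosphorylase, at 6.76, Nod1, a sensor of bacterial cell wall fragments, at 6.74, Cpsf4l at 5.95, Mapt, the microtubule-associated protein tau, at 5.50, and Neurod1, a neuronal transcription factor, at 5.34.

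S100a6, a calcium-binding protein, was the most abundant of the 10 leading genes, at 478 UMI CPM in cluster 0 and 104 elsewhere (ratio 4.62, 4.37 to 4.89), and AU015836 closed the list at 4.52. S100a6 and AU015836 were next highest in cluster 6, at 361 and 132 UMI CPM, where Eed stood at 12.5 and Esrrb at 190. The S100a6 level was uneven within the cluster. It was 538 UMI CPM in Mtf2 null day 0 members, 174 in Jarid2 null day 0 members and 39.8 in the 32 Mtf2 null members of days 4 to 10, while WT day 0 cells of cluster 3 had 152 and Jarid2 null day 0 cells of cluster 8 had 21.2. Krt42 also ran lower outside the Mtf2 null day 0 members (153), at 46.7 in the Jarid2 null and 75.7 in the later Mtf2 null members.

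The genes lowest in cluster 0 relative to all other cells belong to differentiated EB cells. Embryonic and fetal globins led, with 2 UMIs of Hbb-bh1 in cluster 0 against 513 UMI CPM elsewhere (1016-fold lower, 281 to 8388), 14 UMIs of Hba-x against 804 UMI CPM, and 0 UMIs of Hbb-bh0, which is at least 102-fold lower. Of the 14 Hba-x UMIs, 13 were in the Mtf2 null members of days 4 to 10. Hba-x stood at 29945 UMI CPM in cluster 18 and at most 352 in any other cluster, with 3.53 in cluster 0 and 0 in clusters 3 and 8. Its ratio thus mostly describes cluster 18. Capn6, a calpain without protease activity, and Col1a1, a fibrillar collagen, had 0 UMIs as well, at least 142-fold and 79.6-fold lower. Where cluster 0 had 0 UMIs, the bound sets 3 UMIs over the whole cluster in its place.

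Against cluster 3 the leading genes were different. Olig2, a basic helix-loop-helix factor of motor neuron and oligodendrocyte progenitors, had 644 UMIs in cluster 0 (162 UMI CPM) and 2 in cluster 3, a ratio of 239 (65.9 to 1978), and its neighbour and paralog Olig1 had 122 and 1.70 UMI CPM, a ratio of 71.7 (30.5 to 222). Hprt, the purine salvage enzyme, stood at 631 and 8.16 UMI CPM (ratio 77.4, 51.9 to 121), and Rplp1, an acidic ribosomal stalk protein, at 3674 and 162 (ratio 22.6, 20.6 to 24.8). The other 6 leading genes were Apoa2, Itpr2, Mir692-2, AC153548.1, Pnp2 and C330004P14Rik.

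These leading genes were not particular to the Mtf2 null cells. In Jarid2 null day 0 cells of cluster 8, Olig2 stood at 304 UMI CPM, Olig1 at 182, Hprt at 684 and Rplp1 at 3472, while WT day 0 cells of cluster 3 had 0, 0.735, 3.68 and 127. The Jarid2 null day 0 members of cluster 0 had 96.7, 110, 774 and 3893. The Mtf2 null and Jarid2 null groups were therefore high, and the WT cells of cluster 3 were low, for genes that include an X-linked housekeeping enzyme and a ribosomal protein. Rplp1 has near-identical pseudogene copies, so its count is uncertain.

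Promoter sequence is shown for 3 of these genes, Olig2 as the leading gene against cluster 3 and S100a6 and Krt42 as leading genes against all other cells, since MTF2 binds CpG-rich DNA. Each stretch runs from 250 to 101 bases before the RefSeq start on the gene's own strand in GRCm38.p6, with every CG pair in capitals. Olig2 lies at chr16:91225300-91225449 (plus strand), S100a6 at chr3:90612644-90612793 (plus strand) and Krt42 at chr11:100270052-100270201 (minus strand).
Olig2: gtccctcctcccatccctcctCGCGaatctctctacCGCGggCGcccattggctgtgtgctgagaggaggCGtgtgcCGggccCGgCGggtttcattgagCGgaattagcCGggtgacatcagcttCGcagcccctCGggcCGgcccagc
S100a6: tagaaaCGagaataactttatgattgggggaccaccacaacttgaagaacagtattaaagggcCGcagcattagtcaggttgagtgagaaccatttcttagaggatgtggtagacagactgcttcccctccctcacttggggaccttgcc
Krt42: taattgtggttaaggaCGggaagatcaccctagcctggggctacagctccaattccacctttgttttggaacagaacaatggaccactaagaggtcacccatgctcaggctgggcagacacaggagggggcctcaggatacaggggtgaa

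The CG pair reads the same on both strands. Olig2 holds 14 of them in its 150 bases, a number reached by 11.7% of the 27025 genes with a sequence. S100a6 holds 2 and Krt42 holds 1, numbers reached by 68.3% and 84.7% of genes, and the median is 3. The leading genes thus include a CG-rich and 2 CG-poor stretches, and binding was not analysed here.

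Lower in cluster 0 than in cluster 3 were maternally expressed transcripts of the imprinted Dlk1-Dio3 region. Meg3 stood at 10.1 against 358 UMI CPM, 35.4-fold lower (25.8 to 49.9), Rian at 4.54 against 92.1, 20.3-fold lower (12.6 to 34.7), and Mirg at 2.02 against 39.1, 19.4-fold lower (9.51 to 45.9). Meg3 was also low in the Jarid2 null day 0 cells of cluster 8 (1.77 UMI CPM), whereas the 45 Mtf2 null day 0 cells outside cluster 0 had 65.2. Vim, the intermediate filament vimentin, stood at 16.2 against 252 (15.6-fold lower, 12.1 to 20.5), and the remaining leading genes were Dpys, Ndufa4l2, AA465934, Ncam1, Ccnb1ip1 and Emp1.

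**Figure D3:**
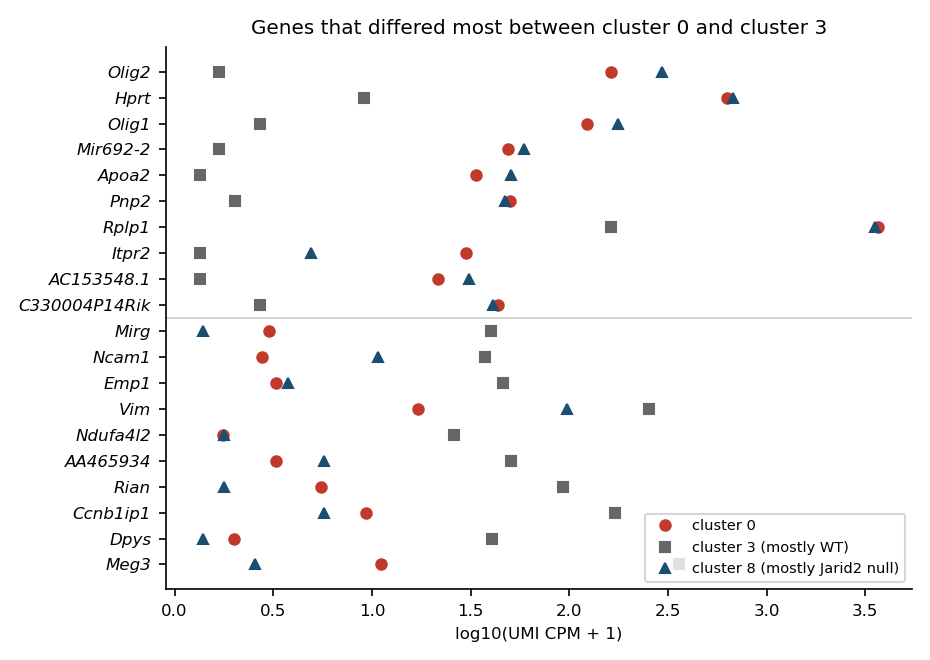
Level of the 10 leading genes in each direction of cluster 0 against cluster 3, as log10 of UMI CPM plus 1, with 1 point each for clusters 0, 3 and 8 over all their cells. Higher genes stand above the grey line and lower genes below it, and for most of the 20 genes cluster 8 lies nearer to cluster 0 than to cluster 3.

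The counts of genes past the fold were lower against cluster 8 than against cluster 3, the only other cluster compared singly, but after thinning they were 323 and 177 against cluster 8 and 333 and 516 against cluster 3. Rhox6, Rhox9 and Rhox5, X-linked homeobox genes of germ cells and placenta, led in cluster 0 with 296, 189 and 118 UMIs against 0, 1 and 0 in cluster 8. That is at least 63.7-fold for Rhox6, at least 25.4-fold for Rhox5 and 122-fold (21.6 to 4843) for Rhox9. These 3 genes were not particular to cluster 0. In cluster 10 Rhox6, Rhox9 and Rhox5 stood at 121, 120 and 140 UMI CPM, against 74.7, 47.7 and 29.8 in cluster 0. Rhox5 was also higher in cluster 3, at 44.9. Klhl13, an X-linked adaptor of a ubiquitin ligase, stood at 719 against 23.5 UMI CPM, a ratio of 30.7 (23.8 to 40.3). It stood at 505 in cluster 10 and 487 in cluster 6.

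The Y-linked gene Uty had 109 UMIs in cluster 0 and 1 in cluster 8, a ratio of 70.4 (12.4 to 2804). Ddx3y and Eif2s3y, also on the Y chromosome, showed the same split, with 100 and 97.5 UMI CPM in Mtf2 null day 0 members against 3.34 and 3.34 in the Jarid2 null day 0 members and 2.65 and 0.442 in the Jarid2 null cells of cluster 8. The Jarid2 null cells were thus near 0 for Y-linked genes in both clusters, which sets the lines apart whatever the cluster. Lower in cluster 0 than in cluster 8 were Halr1, a transcript beside the Hoxa genes, at 25.6-fold (11.3 to 71.3), Myo1f, Lef1, Ttn and Zic5.

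Because cluster 0 joins cells of 2 genotypes, the Jarid2 null day 0 cells inside it were set beside those in cluster 8. These cells come from the same plate, and they differ as the cluster boundary made them differ. Rhox6 had 9 UMIs in the 45 cells inside and 0 in the 223 cells of cluster 8, Klhl13 stood at 214 against 19.9 UMI CPM, Prdm1, a repressor that marks primordial germ cells, at 63.4 against 9.72, and Dppa3, a maternal and germ cell factor, at 240 against 76.4. Tfap2c, a factor of trophoblast and germ cells, was at 167 against 55.2, and Olig2 ran lower inside, at 96.7 against 304.

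Gene lists are described by counts of their members at 20 UMI CPM or more in the higher group. A member that reached this minimum only through the group where it is high had to differ, so such counts support no direction. Of 13 naive pluripotency genes at 20 UMI CPM or more, 5 were past the fold and higher than in all other cells (Esrrb, Klf5, Tfcp2l1, Tcl1 and Nr0b1), and Zfp42 was lower. The median log2 ratio of the list was 0.78, beside -0.05 over all genes. Against cluster 3, 0 were higher and 2, Tbx3 and Zfp42, were lower, and against cluster 8 only Tcl1 was higher and only Klf4 lower. Zfp42, a zinc finger gene used as a marker of naive cells, stood at 144 UMI CPM in cluster 0 and 812 in WT day 0 cells of cluster 3, and it was also low, at 126, in Jarid2 null day 0 cells of cluster 8.

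Core pluripotency genes differed little from the nearest clusters, with 0 of 12 past the fold against either cluster 3 or cluster 8. The 12 formative epiblast genes summed to 826 UMI CPM in cluster 0, 1308 in all other cells, 779 in cluster 3 and 874 in cluster 8. Otx2 stood at 24.7 UMI CPM in cluster 0 and 140 in the Mtf2 null day 0 cells outside it, and Dnmt3a, a de novo DNA methyltransferase, at 48.7 and 223. The summed level of 15 mesoderm genes was 23.5 UMI CPM in cluster 0, 379 in all other cells, 15.0 in cluster 3 and 22.7 in cluster 8, and that of 14 endoderm genes was 94.6, 317, 107 and 71.6 in the same order.

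The 15 measured germline genes summed to 513 UMI CPM in cluster 0, 411 in all other cells, 237 in cluster 3 and 170 in cluster 8. Only 7 of them reached the minimum against cluster 3 and 7 against cluster 8. Prdm1, Rhox6 and Rhox9 did so only through cluster 0 in both comparisons, as did Tex15 against cluster 3 and Rhox5 against cluster 8. Sycp3, a meiotic chromosome protein, ran the other way against cluster 3, at 12.4 against 53.04 UMI CPM. Dppa3 stood at 199 UMI CPM in cluster 0 against 47.8 in the WT cells of cluster 3, and Tex15, which acts in germ cell transposon silencing, at 52.5 against 4.78.

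Of 14 imprinted genes, Peg3, Grb10 and Nnat were higher than in cluster 3, and Meg3, Rian, Mirg and Cdkn1c were lower, with a median log2 ratio of 0.04 beside -0.07 over all genes, of which 3.64% were higher and 4.86% lower. Against all other cells 10 of 18 were lower and 0 higher, and against cluster 8 Peg10, Phlda2 and Igf2r of 10 were higher and 0 lower. Among 11 PRC2 subunit genes only Mtf2 was past the fold against cluster 3, and it was lower. Among 12 glycolysis and hypoxia genes, Pkm was higher than in cluster 3 and Pfkp, Slc2a1 and Bnip3 were lower. Of the regulators that the study names as poised, a list chosen by the study on these samples, 3 reached the minimum against cluster 3, with Sox11, a neural progenitor factor, higher and Gbx2 lower.

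The 32 Mtf2 null members from days 4 to 10 differed from those of day 0. S100a6 stood at 39.8 against 538 UMI CPM, and Klf5, a naive pluripotency factor, stood at 669 against 1641 and Tfcp2l1 at 124 against 292. Higher in the later cells were Bnip3, a mitophagy gene induced in hypoxia, at 307 against 48.5, Rhox6 at 215 against 67.4, Rhox9 at 155 against 40.8, Rhox5 at 116 against 26.01 and Dnmt3a at 108 against 40.2. Nanog stood at 375 in the later cells and 269 at day 0. Later members had a median of 6252 UMIs per cell, and all of these values rest on few cells, 27 of them from day 4.

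Within the Mtf2 null day 0 members, variation between cells was measured in the 296 cells with at least 2500 UMIs. Over 4696 genes with a mean of at least 0.1 UMI the median variance-to-mean ratio was 1.08, where counting alone gives about 1, and 19 genes were above 2. The most variable were Lefty2, an inhibitor of Nodal signalling, at 3.96, Mt2, a metallothionein, at 3.94, Khdc3, an oocyte factor, at 3.33, Klhl13 at 3.12 and Rhox6 at 2.83. Id2, Malat1, Lars2, Mt1 and Sqstm1 completed the 10 highest, at 2.22 to 2.65.

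Lefty2 had a UMI in 49.7% of these cells and up to 17 in 1 cell, and Rhox6 in 11.5% of cells and up to 7. In 292 WT day 0 cells of cluster 3 the ratios were 2.51 for Lefty2, 2.49 for Mt2, 3.08 for Klhl13 and 2.44 for Rhox6. Malat1 and Lars2 were more variable in those WT cells, at 4.35 against 2.63 and 3.42 against 2.38, while the rest of the most variable genes named above were less variable there. S100a6 had a ratio of 2.04 with UMIs in 60.8% of cells. Nanog and Esrrb were near the median of all genes, at 1.13 and 1.09.

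Bulk libraries of undifferentiated cells gave a measurement that the clusters did not use. The 12 libraries held 9883730 to 16365806 estimated counts, and Mtf2 null was compared with WT by edgeR's quasi-likelihood test over 16655 genes. A gene was called where its p, adjusted by the Benjamini-Hochberg method, was under 0.001 and its levels differed by more than 2-fold. The duplicates are technical by the authors' account, so the p-values measure only the spread between these samples. In whole cultures, fewer cells of a type and less RNA per cell cannot be told apart. Of all genes tested, 1350 (8.11%) were called higher in Mtf2 null and 1094 (6.57%) lower.

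Mtf2 itself checked the labels. The WT libraries had 425 and 512 CPM in the endoderm series and 365 and 511 in the mesoderm series, and the Mtf2 null libraries had 34.2, 30.4, 34.1 and 31.4 in the same order, without overlap. The log2 fold change was -3.80 (SE 0.12, edgeR adjusted p = 2.522e-12). Jarid2 rose by 1.26 (SE 0.10) in Mtf2 null and stood at 291 to 316 CPM in the Jarid2 null libraries and 354 to 461 in WT.

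The genes that distinguished cluster 0 from cluster 3 were compared with these calls. Of the 264 genes past the fold in the higher direction, 247 could be tested, and 148 (59.9%) were called higher in the Mtf2 null bulk libraries and 2 lower, with a median log2 fold change of 1.22. Over the 7016 tested genes measured in both data sets, 7.80% were called higher and the median was 0.09. Of the 353 genes lower in cluster 0, 349 could be tested, and 128 (36.7%) were called lower, beside 3.93% of the 7016, and 2 higher, with a median of -0.68.

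The leading genes Olig2, Olig1 and S100a6 were called higher in bulk. S100a6 had 4.31, 6.41, 7.77 and 8.81 CPM in WT and 48.02, 50.52, 35.71 and 49.04 in Mtf2 null, a log2 fold change of 2.75 (SE 0.17, edgeR adjusted p = 3.677e-09). Olig2 had 0 to 0.189 CPM in WT and 15.6 to 18.0 in Mtf2 null (7.69, SE 0.35, edgeR adjusted p = 1.234e-10), and Olig1 rose by 4.50 (SE 0.23). None of the 3 overlapped between WT and Mtf2 null libraries.

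Hprt was at 0.189 to 0.524 CPM in WT, 0.259 to 0.679 in Jarid2 null and 75.3 to 91.6 in Mtf2 null, a log2 fold change of 7.96 (SE 0.18, edgeR adjusted p = 7.575e-14) between Mtf2 null and WT. The Jarid2 null bulk libraries were thus at the WT level for Hprt, unlike the Jarid2 null single cells, and the same held for Olig2 (0 to 0.0610 CPM) and Meg3 (76.5 to 130). Uty also had 23.4 to 34.2 CPM in the Jarid2 null bulk libraries and 30.98 to 40.64 in WT. The Jarid2 null cells of the bulk and of the single-cell experiment therefore differ in line markers, and a difference of Mtf2 null from Jarid2 null in bulk does not repeat the comparison of cluster 0 with cluster 8.

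Not every single-cell ratio was found in bulk. Rplp1 stood at 694 to 1094 CPM in WT and 766 to 1155 in Mtf2 null, overlapping, with a log2 fold change of 0.08 (SE 0.15, edgeR adjusted p = 0.668), although its UMI ratio to cluster 3 was 22.6. The deposited UMI and bulk counts were made with different tools, and the part of the counting in this difference was not tested. Rhox5 had 17.9 to 26.3 CPM in WT and 6.79 to 12.6 in Mtf2 null, and fell by 1.30 (SE 0.15).

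The keratins, whose UMI ratios to cluster 3 were 2.09 (1.77 to 2.47) for Krt17 and 2.98 (2.47 to 3.63) for Krt42, differed modestly in bulk. Krt17 rose by 1.01 (SE 0.12, edgeR adjusted p = 4.726e-06), with 14.3 to 18.3 CPM in WT and 29.7 to 34.9 in Mtf2 null. Krt42 had 7.17 to 17.3 CPM in WT and 20.2 to 22.9 in Mtf2 null, a log2 fold change of 0.98 (SE 0.19, edgeR adjusted p = 0.000443) that lay just under the fold threshold, although the groups did not overlap. The call of Krt17 was lost when any of 6 WT and Mtf2 null libraries was left out (all but replicate 1 of the mesoderm series in each genotype), with log2 fold changes of 0.93 to 0.99, and under another scaling (0.998), and Krt42 was called without WT replicate 1 of the mesoderm series, at 1.24. Nod1 and Pnp2 rose by 4.68 and 4.57, AU015836 by 4.28, Serpinb6c by 1.70, Cpsf4l by 1.67 and Mapt by 1.57, while Neurod1 had a log2 fold change of 0.92 and was not called.

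Leading transcripts low in cluster 0 were called lower in bulk as well. Meg3 had 74.7 to 116 CPM in WT and 0.164 to 0.848 in Mtf2 null, and fell by 7.42 (SE 0.32, edgeR adjusted p = 7.779e-11). Rian fell by 6.67, Mirg by 8.08, Vim by 4.15, Dpys by 4.90 and Zic5 by 3.70. Cdkn1c, an imprinted inhibitor of the cell cycle, fell by 2.34.

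Of the marker genes, Esrrb had 289 to 436 CPM in WT and 587 to 661 in Mtf2 null. It differed by 0.81 (SE 0.14, edgeR adjusted p = 0.000224), without overlap but under the fold threshold. Nanog had 387 to 469 CPM in WT and 468 to 489 in Mtf2 null and differed by 0.17 (SE 0.08, edgeR adjusted p = 0.0952), with overlapping groups. Among 14 naive genes, Klf4, Klf5, Tfcp2l1 and Nr0b1 were called higher and Zfp42 fell by 2.47 (SE 0.07). Over all genes tested 8.11% were called higher and 6.57% lower. In bulk too, a list member could pass the count filter through the genotype where it is high, so counts of list members support no direction. Among 12 core pluripotency genes 0 were called in either direction.

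**Figure D4:**
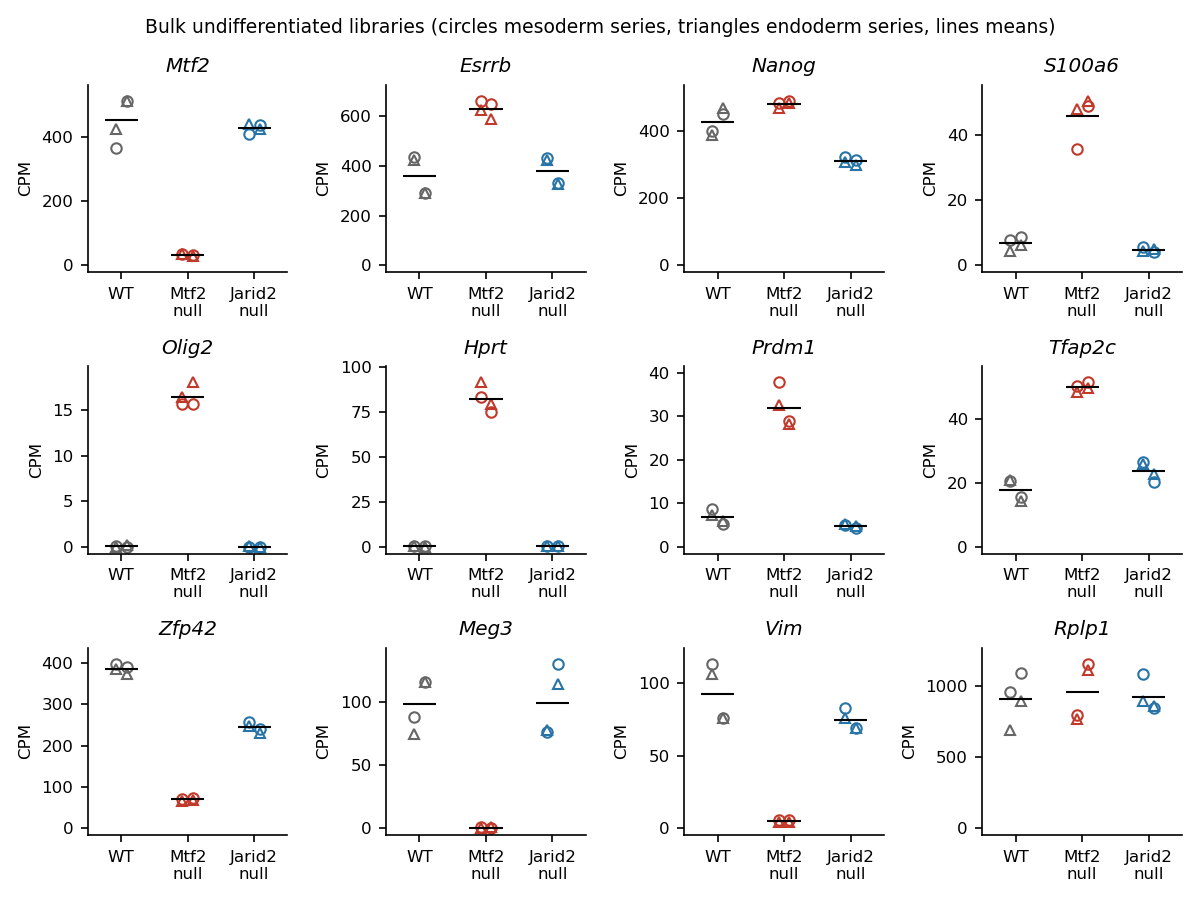
CPM of 12 genes described in the text in each of the 12 bulk libraries of undifferentiated cells, with circles for the mesoderm series, triangles for the endoderm series and lines for the means of the 4 libraries of a genotype. Olig2, Hprt and S100a6 lie higher in all 4 Mtf2 null libraries than in all WT and Jarid2 null libraries, and Meg3 lies lower.

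Germline genes were called in both directions in bulk. Of 15 tested, Dppa3 (2.58), Prdm1 (2.23), Tex15 (2.67), Sycp1, Rhox6 (2.22) and Rhox9 (2.81) were called higher and Nanos3, Sycp3, Rhox5 and Tuba3a lower. Rhox6 and Rhox9 were low in bulk, with 2.36 to 3.44 and 1.04 to 1.81 CPM in Mtf2 null, and the call of Rhox9 was lost without any of 4 libraries, at edgeR adjusted p of 0.00105 to 0.00172 (endoderm WT replicate 1, mesoderm WT replicate 2, endoderm Mtf2 null replicate 1 and mesoderm Mtf2 null replicate 2). The list's median was -0.30, beside -0.04 over all genes tested. Of 6 tested genes of cleavage-stage embryos, Zscan4a, Zscan4d, Zscan4e and Zscan4f were called lower, with a median of -5.47 over the 6, and all 4 were at 0 UMIs in the single cells of clusters 0 and 3. Imprinted genes were called in 13 of 20 cases, 9 higher and 4 lower, beside 8.11% and 6.57% of all genes tested. Peg3 rose by 2.59 and Nnat by 5.93, and the list's median was 0.72 beside -0.04 over all genes tested. Of 15 tested regulators that the study names as poised, 6 were called higher (Gata6, Foxa2, Sox11, Pdgfra, Bmp2 and Wnt7b) and 0 lower, with a median of 0.78. The study chose that list on these samples, so the count is a description and no support.

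Endoderm genes were called higher in bulk, while their levels in the cells of the cluster were low. Of 11 endoderm genes tested, 10 were called higher in Mtf2 null (Foxa2, Sox17, Gata4, Gata6, Sox7, Dab2, Amn, Lama1, Col4a1 and Lamb1), beside 8.11% of all genes tested. The list's median log2 fold change was 2.62, beside -0.04 over all genes tested. Gata6, a primitive endoderm factor, was at 1.80 to 2.17 CPM in WT and 15.8 to 18.0 in Mtf2 null (3.13, SE 0.14, edgeR adjusted p = 1.19e-10). In cluster 0, Gata6 stood at 1.51 UMI CPM against 0.34 in cluster 3, Gata4 at 3.28 against 2.38 and Dab2 at 4.80 against 2.04. The summed level of the list was 94.6 UMI CPM in cluster 0 and 107 in cluster 3. In the 45 Mtf2 null day 0 cells outside cluster 0 it was 75.1, with Foxa2, Sox17, Gata6, Sox7 and Dab2 at 0 UMIs. These zeros rest on 506221 UMIs in all, compared with 3962468 in cluster 0, so they do not show that the genes were absent or lower than in cluster 0. The bulk and single-cell cultures were separate, and the difference between them was not tested.

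Against the Jarid2 null bulk libraries, 1189 genes (7.14%) were called higher in Mtf2 null and 1146 (6.88%) lower. Of 158 tested genes higher in cluster 0 than in cluster 8, 69 (43.7%) were called higher, beside 7.38% of the 6677 tested genes measured in both data sets. Of 71 tested genes lower in cluster 0, 15 (21.1%) were called lower and 14 (19.7%) higher, beside 2.17% and 7.38% of the 6677. Both bulk contrasts share the Mtf2 null libraries.

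Among the genes with the largest bulk changes, Gc, a vitamin D binding protein of liver and yolk sac, and Ubd, a ubiquitin-like modifier, were listed at 0 in all 4 WT libraries and were at least 110-fold and 73.6-fold higher in Mtf2 null. Gm4767 was at least 134-fold higher, and Plagl1, an imprinted zinc finger gene, rose by 8.01. The 5 lowest were Rpl34-ps1, Rprl3, Gm45315, Gm10259 and Gm9825, which had 0 counts in the 4 Mtf2 null libraries and are pseudogenes, small RNAs or predicted genes whose reads can be shared with near-identical copies. Bounds set 3 counts over the 4 libraries in place of 0.

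EBs of an Mtf2 null line and of its matched line Pcl1-3 WT gave another view of the same genes at days 2, 4 and 7, as a signal per gene with 2 sequencing runs of 1 sample and no test. Day 0 was left out of this comparison because the library labelled Mtf2 null then had a Hprt signal of 0.865, against 260 to 781 under the same label at later days. The targeted gene does not settle these labels. Mtf2 was 1155, 1220 and 886 in Mtf2 null at days 2, 4 and 7, lower than in Pcl1-3 WT (2229, 1666 and 1986) but far from 0. In JM8, the WT line matched to Jarid2 null, Mtf2 was 1763, 1006.5 and 959, so at day 4 the Mtf2 null library was above this WT line. Against the library labelled Jarid2 null, Mtf2 in the Mtf2 null library was lower at day 2 (1155 and 2080), higher at day 4 (1220 and 953) and nearly equal at day 7 (886 and 891). Of all genes with a signal of at least 20, 8.54% were 2-fold higher in Mtf2 null at day 2, 11.0% at day 4 and 18.2% at day 7, and 4.35%, 5.35% and 9.78% were lower.

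Genes high in cluster 0 were higher in these EBs more often than all genes at day 2, but so were genes low in cluster 0. For the high genes the share was near that of all genes at day 4 and below it at day 7. Of those higher than in cluster 3, 33 of 237 (13.9%) were 2-fold higher at day 2, 28 of 232 (12.1%) at day 4 and 27 of 232 (11.6%) at day 7. The shares of all genes were 8.54%, 11.0% and 18.2%. In the same set 15 (6.33%), 23 (9.91%) and 43 (18.5%) were lower, beside 4.35%, 5.35% and 9.78% of all genes. Of those lower in cluster 0, 18 of 332 (5.42%) were lower at day 2 and 49 (14.8%) were higher, beside 4.35% and 8.54% of all genes. At day 7, 87 of 328 (26.5%) were higher and 25 (7.62%) lower, beside 18.2% and 9.78% of all genes.

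S100a6 was higher on all 3 days, with a signal of 556, 212 and 468 in Mtf2 null at days 2, 4 and 7 and 161, 16.8 and 114 in Pcl1-3 WT. With Rhox9, Hist1h4i, Homer2, Lpar6 and Pla2g7 it was 1 of 6 such genes that were higher on every day. These are 2.63% of the 228 with a signal of at least 20 on all 3 days, a share near the 3.05% of all 11328 genes at that minimum. Inpp5d, Ldhb, Mgat5b, Mid1 and Zic5, of the genes lower in cluster 0, were lower on every day, 1.56% of 321 beside 1.06% of all genes.

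Line markers behaved differently against this matched WT line. Hprt stood at 781, 413 and 260 in Mtf2 null and at 819, 490 and 569 in Pcl1-3 WT, so that both lines had the transcript that was near 0 in WT cells of the single-cell and UD experiments. Olig2 stood at 153, 21.8 and 0 in Mtf2 null and at 33.1, 27.9 and 12.7 in Pcl1-3 WT. Krt42, which led cluster 0 against all other cells, stood at 123, 2.59 and 0.543 in Mtf2 null and was higher in Pcl1-3 WT, at 467, 14.4 and 39.3. Mtf2 in these EBs was 1155, 1220 and 886 in Mtf2 null and 2229, 1666 and 1986 in Pcl1-3 WT.

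**Figure D5:**
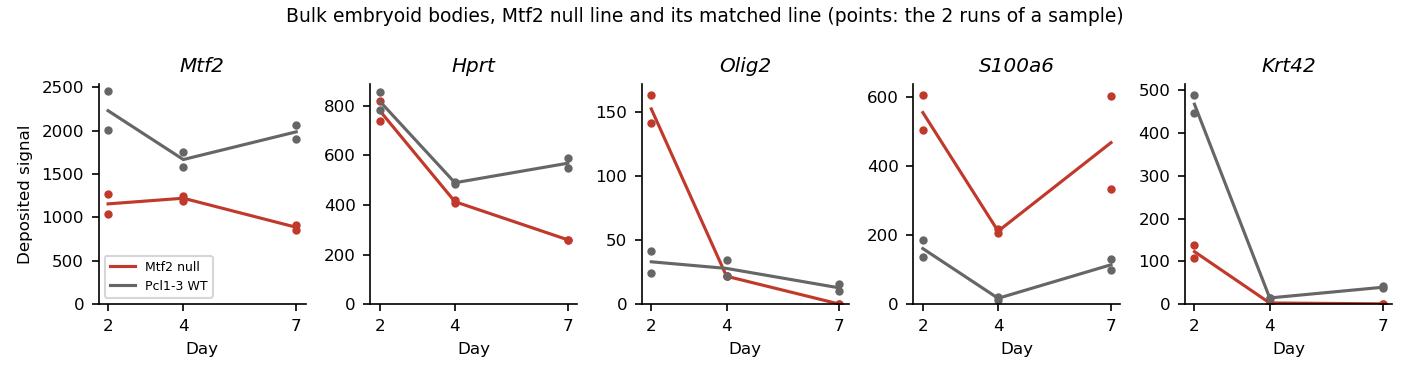
Deposited signal of Mtf2, Hprt, Olig2, S100a6 and Krt42 in EBs of the Mtf2 null line and its matched line Pcl1-3 WT at days 2, 4 and 7, with 1 point for each of the 2 runs of 1 sample and lines through their means. S100a6 is higher in Mtf2 null on all 3 days, whereas Hprt is present in both lines (781 and 819 at day 2) and Krt42 is lower in Mtf2 null.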

How the data were processed

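Single live cells of EBs were sorted into wells and sequenced by the SORT-seq/CEL-Seq2 method, and the authors deposited whole UMI counts per gene with the cluster of each kept cell. Doublets were not called, since wells received sorted single cells. For UD cells the deposited values were estimated counts from Salmon, run by the authors, which were rounded here to whole numbers. For bulk EBs the deposited values were a signal, the counts that the authors divided by DESeq2 size factors, and the 2 runs of a sample were averaged. The submitters' processing notes name GRCm38, mm10, CASAVA, Bowtie2, HTSeq, Salmon and DESeq2. A total of 50 sample columns were not used.

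UMIs were summed per group of cells with Python 3.11.15 (numpy 2.4.6, pandas 2.3.3, scipy 1.17.1), with thinning at seed 7. UD libraries of both series were fitted together with edgeR 4.0.16 in R 4.3.3 (TMM scaling, filterByExpr with a minimum count of 10 and total of 15, terms for series and genotype, quasi-likelihood test). On simulated libraries of the Mtf2 null and WT comparison, 85.5% of 200 genes changed 4-fold were recovered and 0 unchanged genes were called among 16286 genes. DESeq2 1.42.0, another scaling, no filter, a replicate block, each series alone and leaving out each library were tried as alternatives. Duplicates differed by more than sampling noise (chi-square of 9.07 to 14.4 per gene) and were kept apart.

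The cluster, the gene lists and the tests were chosen with earlier results of these data known. Named were Mtf2, Jarid2, Eed, Esrrb, Nanog and genes of the lists, the 10 largest ratios each way against all other cells and against cluster 3 and the 5 largest against cluster 8, the 10 most variable genes, and the 5 largest called bulk changes each way with at least 5 CPM and no overlap. Genes described in a comparison in which this rule does not name them were chosen after their values were seen.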

Additional observations from a re-analysis of the deposited data

Results flagged for a closer look

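Of 180 groups of 4 undifferentiated bulk libraries tested for a value that stands apart from the other 3 by Dixon's 95% critical value, 7 (3.89%) were flagged, where chance flags about 1 in 20. S100a6 in the Mtf2 null libraries had its lowest value, 35.7 CPM, in replicate 1 of the mesoderm series, with the others at 48.02 to 50.52. Gm4767 had 15.05 CPM in 1 Mtf2 null library and 6.60 to 7.79 in the others. The other 5 rested on values at or near 0. Dpys was at 0 CPM in 1 Mtf2 null library and at 0.283 to 0.335 in the others, and Mirg was at 0.310 in 1 Mtf2 null library and 0 in the others. In the same way Gc was at 0.0754 and Olig2 at 0.0610 CPM in 1 Jarid2 null library, and Plagl1 at 0.0899 in 1 WT library, with 0 in the other 3 libraries of each group.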

How the results depend on the processing

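The Mtf2 null and WT bulk comparison called 2444 genes, 1625 in the mesoderm series alone, 5101 with no minimum fold and 907 at a log2 fold change above 2, and the Mtf2 null and Jarid2 null comparison called 2335, 1439 in the mesoderm series alone. The other scaling, tool, filter and series alternatives stayed within 1.5 times. Leaving out 1 library gave 2195 to 2437 and 2133 to 2262 genes. Genes higher in cluster 0 than cluster 3 called higher in bulk then numbered 136 to 149, and those lower and called lower 123 to 140, and against cluster 8 they numbered 57 to 67 and 14 to 18.

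The duplicates share only a number across genotypes (correlations of deviations between -0.24 and 0.32), and a fit with the replicate block called 2394 and 2283 genes. Among 60 named genes, 868 of 900 alternatives kept direction and side of the threshold, 22 lost a call (Krt17, Rhox9, Dnmt3l, Rhox6), 3 gained one (Krt42, 1.02 with the replicate block) and 7 reversed. All 7 concern genes that were not called: Rplp1 was at -0.077 in the mesoderm series alone and at -0.092 to 0.20 without 1 library, Pou5f1 at -0.032 to 0.13 and Eed at -0.018 to 0.12. The cause was not tested.

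With at least 50 UMI CPM in the higher group, the single-cell counts were 113 higher and 268 lower against all other cells, 122 and 155 against cluster 3 and 69 and 36 against cluster 8. Thinned cells gave 323 and 177 against cluster 8. Mtf2 in cluster 0 was 45.5 UMI CPM in Mtf2 null day 0 members only, 119 thinned and 118 as a mean over cells, Jarid2 was 884, 762 and 748, and Nanog was 245 as a mean over cells.

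Single-cell values rest on 1 plate per genotype and day, and genes below 20 UMI CPM in both groups were not counted as past the fold. Bulk duplicates are technical, and the mutant and WT cells differ in line markers such as Hprt and Meg3.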

Other observations

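At day 0 of the bulk EB experiment, the library labelled Jarid2 null had signals of 546 for Hprt, 117 for Olig2, 228 for Rhox6, 1354 for Klhl13 and 450 for S100a6, while the library labelled Mtf2 null had 0.865, 0, 1.73, 225 and 144. From day 2 to day 7 the library labelled Jarid2 null had 2.28, 2.81 and 0.380 for Hprt, and the library labelled Mtf2 null had 781, 413 and 260. For Hprt the order at day 0 was therefore the reverse of the order at later days. Mtf2 itself stood at 667 in the library labelled Jarid2 null and 1628 in the one labelled Mtf2 null at day 0, at 2080 and 1155 at day 2, 953 and 1220 at day 4 and 891 and 886 at day 7. Every library was kept under its own label.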
